A study of Homo sapiens with 15 samples.

Results

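Cultures given 500 µM free fatty acids together with 25 µM C3R (the group FCL) were compared with blank control cultures (NC), to see which genes stood away from control when both were present. The members are the 3 libraries labelled FCL and the 3 labelled NC, 6 of the 15 libraries of the study. C3R is cyanidin-3-rutinoside, an anthocyanin, that is a plant pigment made of a coloured core with a sugar attached. The cultures are labelled HepG2, an established human liver tumour line, with liver as the tissue and hepatocyte as the cell type.

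The study measured messenger RNA by sequencing in 5 groups of 3 replicates, which the labels call biological, and asked how C3R acts in cells loaded with fatty acids. NC received neither the fatty acids nor C3R. The group FFA received 500 µM free fatty acids without C3R, and it is used here to set the FCL values beside those of the fatty acids alone. The 2 remaining groups received the same fatty acids with 50 µM (FCM) or 100 µM (FCH) C3R and served only in the common estimate of the spread. FCL differs from NC in both the fatty acids and C3R, so in this comparison the share of each cannot be told apart. The sources used here do not give the composition of the fatty acids or the length of the exposure. The labels do not say whether replicates were grown apart, so the spread behind each p-value is that of these 3 samples a group and may be technical.

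The deposited values are TPM, a share of transcripts that is corrected for gene length and sums to about the same total in each library. Since such shares hold no read numbers, sequencing depth is unknown here and counting error could not be given. Of 63241 genes in the table, 12950 reached 1 TPM in at least 3 of the 15 libraries and were tested. Changes are differences of log2(TPM + 1), which makes changes of genes at low TPM look smaller than they are. A gene is called, and is said to rise or fall, at an adjusted p under 0.05 (limma, all 15 libraries in 1 model, two-sided, Benjamini-Hochberg over all tested genes). All adjusted p-values of genes below are from this limma model. Values of a group are listed in the order of replicates 1, 2 and 3, and errors are SD of 3 replicates or, for log2 changes, standard errors (SE).

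The markers of hepatocytes went against the label. Of 8 hepatocyte markers, 5 stayed under 1 TPM in all 15 libraries, namely APOB, TTR, AFP, FGB and HNF4A. AFP, the fetal albumin gene that the HepG2 line is known to express, was listed at 0 in all 6 NC and FCL libraries. ALB, which encodes serum albumin, was at 0.355, 0.235 and 0.655 TPM in NC and at 1.67, 1.03 and 0.245 TPM in FCL. The lipoprotein gene APOA1 was at 9.83, 8.68 and 7.43 TPM in NC and 12.8, 6.18 and 14.7 TPM in FCL, and the protease inhibitor gene SERPINA1 at 10.1, 7.33 and 6.95 and 11.8, 13.7 and 14.1 TPM. KRT7, a keratin of simple epithelia listed among the cholangiocyte markers, was at 1798, 1759 and 1745 TPM in NC and 1783, 2456 and 2234 TPM in FCL, while the other 5 cholangiocyte markers stayed low and CFTR was close to 0. The cultures are therefore called cultures labelled HepG2 throughout, and no other cell type is assigned. The summed TPM of the 8 hepatocyte markers was 15.3 to 20.4 in NC and 21.7 to 29.4 in FCL, and none of the 3 tested was called.

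**Figure D1:**
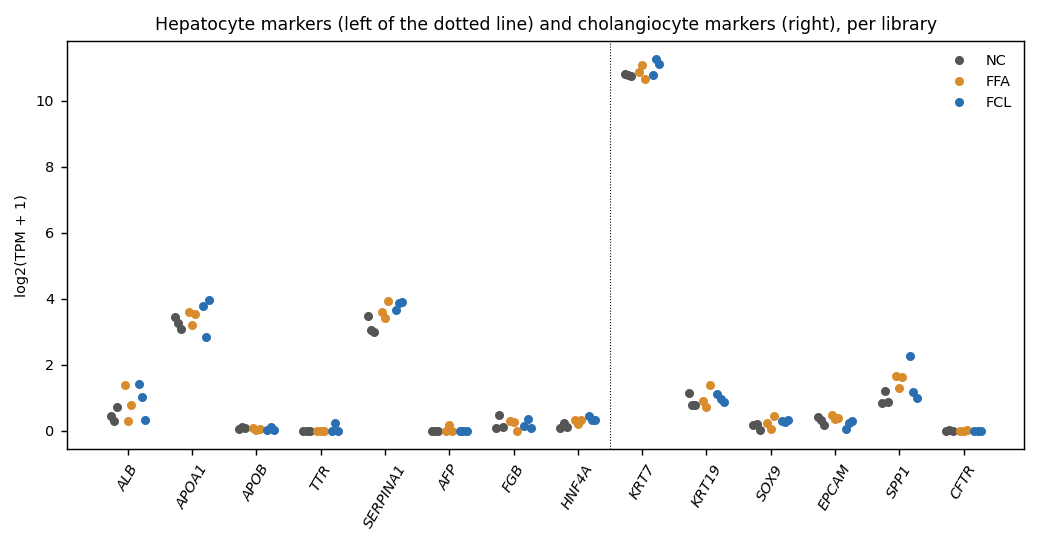
The level of each hepatocyte marker and each cholangiocyte marker in every NC, FFA and FCL library, on a vertical axis of log2(TPM + 1). Points are single libraries. Most hepatocyte markers lie at or near 0 in all 3 groups, while KRT7 lies above 10 on this axis in every library.

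Other marker lists were read in the same way. The summed TPM of 8 leukocyte markers was 54.6 to 63.4 in NC and 148 to 222 in FCL, with the FCL libraries all above the NC libraries. This sum rests on CD68, a lysosomal membrane protein gene of macrophages that many other cells also express, at 58.9, 52.8 and 61.5 TPM in NC and 144, 217 and 161 TPM in FCL (log2 change 1.55, SE 0.21, adjusted p = 0.000417). CSF1R, a macrophage growth factor receptor, also rose (log2 change 0.85, adjusted p = 0.0451), while CD163, CD3E and MS4A1 were listed at 0 in all 6 libraries. The call of CSF1R was lost in 11 of 15 fits that each left out 1 library, among them those without any 1 of the NC or FFA libraries. It was also lost with median-of-ratios rescaling, the compared groups alone, no filter and the GC and length trend removed. The part of these markers in the other changes was not tested. No endothelial marker of 6 reached the filter, and none of the 6 tested stellate cell markers and 3 tested cholangiocyte markers was called by limma, with 2 and 0 at an unadjusted p under 0.05. In bulk samples a change in the number of cells of a type and a change in RNA per cell cannot be told apart.

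As background, long-chain fatty acids that enter a liver cell are bound by small carrier proteins, activated to acyl-CoA and then burnt in mitochondria or stored as triglyceride in lipid droplets. They are also ligands of the PPAR nuclear receptors, which switch on genes for fatty acid handling. Saturated fatty acids are known to stress the endoplasmic reticulum, and the ATF4 branch of the stress response and the antioxidant factor NRF2 both respond to such loads.

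FCL differed from NC in 1175 of 12950 tested genes, 9.07%, of which 843 were higher (6.51%) and 332 lower (2.56%). The rises were led by fatty acid and stress genes, with FABP3, ANGPTL4, AKR1C1, FGF21, AKR1C2, PDK4, PLIN4, ATF3 and KLF2 among the 10 largest. The 10 largest falls held the cleavage factor gene CSTF3, the metallothionein genes MT1X and MT1E, and several histone, pseudogene and antisense entries, which include the 2 largest. Most changes were small: 262 genes (2.02%) were called with an estimated change of at least 1 on the log2 scale, 185 up and 77 down. In 1162 of the 1175 called genes the NC and FCL libraries did not overlap. Over all tested genes, all FCL libraries lay above all NC libraries in 2159 (16.7%) and below them in 1040 (8.03%). The median log2 change over all tested genes was 0.04.

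Of the called genes 71.7% were higher. That share was 58.6% with quantile normalization (992 higher and 700 lower) and 58.2% with each library's trend over GC content and transcript length removed (1119 and 805). Across genes, which are not independent replicates, the log2 change had a Spearman correlation of 0.27 with GC content. Median GC content was 55.2% in genes called higher, 51.1% in those called lower and 50.1% in all tested genes. The part of GC content in single changes was not tested beyond that alternative. Each FCL library had its highest correlation with a library outside FCL. The mitochondrial genome held 10.8% to 12.0% of the TPM in NC and 8.66% to 11.6% in FCL. The count of 1175 was 682, 701 and 691 without NC replicate 1, 2 or 3, 781 and 772 without FCL replicate 2 or 3, and 1951 without FCM replicate 3.

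**Figure D2:**
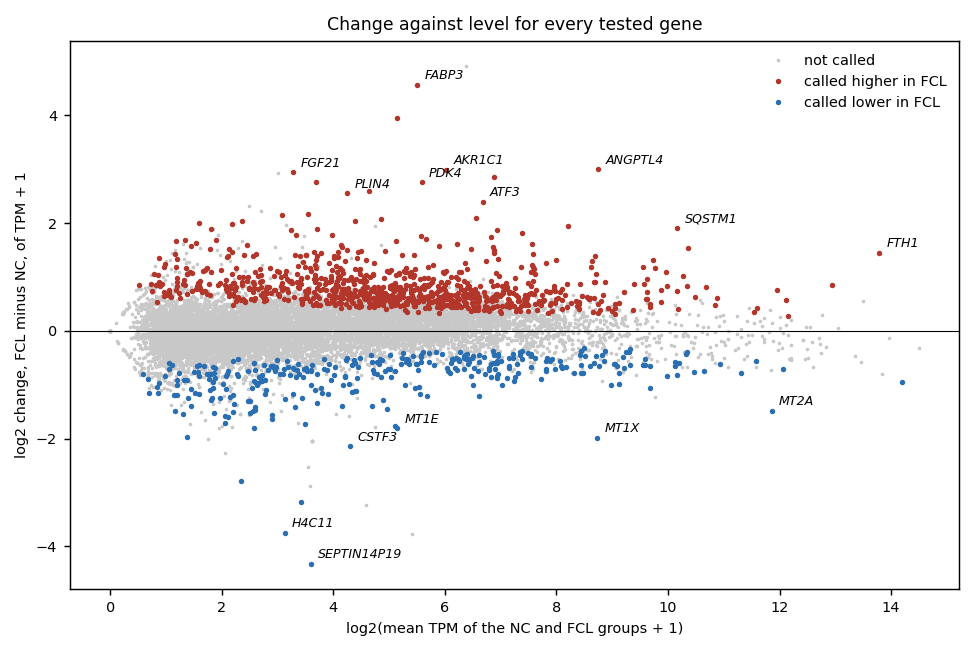
The log2 change of TPM + 1, FCL minus NC (vertical axis), against the log2 of the mean TPM of both groups plus 1 (horizontal axis) for every tested gene, with called genes coloured and some genes of the text named. Most called genes lie above 0, and FABP3 lies highest at 4.57.

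Of 20 tested PPAR target genes 10 rose and none fell, with a median log2 change of 0.76 against 0.04 over all tested genes. Counts of this and the following lists stand beside 6.51% called higher and 2.56% called lower over all tested genes. FABP3 encodes a cytosolic fatty acid carrier best known from heart and muscle. It was at 3.06, 2.93 and 1.87 TPM in NC and at 66, 113 and 79.7 TPM in FCL, a log2 change of 4.57 (SE 0.31, adjusted p = 1.25e-06). Every FCL library lay far above every NC library. ANGPTL4, a secreted inhibitor of lipoprotein lipase, was at 80, 101 and 104 TPM in NC and 736, 714 and 840.0 TPM in FCL (log2 change 3.00, SE 0.15, adjusted p = 4.06e-08). PDK4, the kinase that closes pyruvate dehydrogenase and so spares glucose, went from 8.71, 10.6 and 14.7 TPM to 106, 77.6 and 64.2 TPM (log2 change 2.76, SE 0.27, adjusted p = 1.73e-05). Neither gene's groups overlapped. FGF21, the hormone of the fasted liver, was at 1.14, 1.02 and 1.48 TPM in NC and 15, 12.6 and 21.1 TPM in FCL (log2 change 2.94, SE 0.25, adjusted p = 5.4e-06), low in level but apart in every library. FGF21 is also on the list of ATF4 targets.

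**Figure D3:**
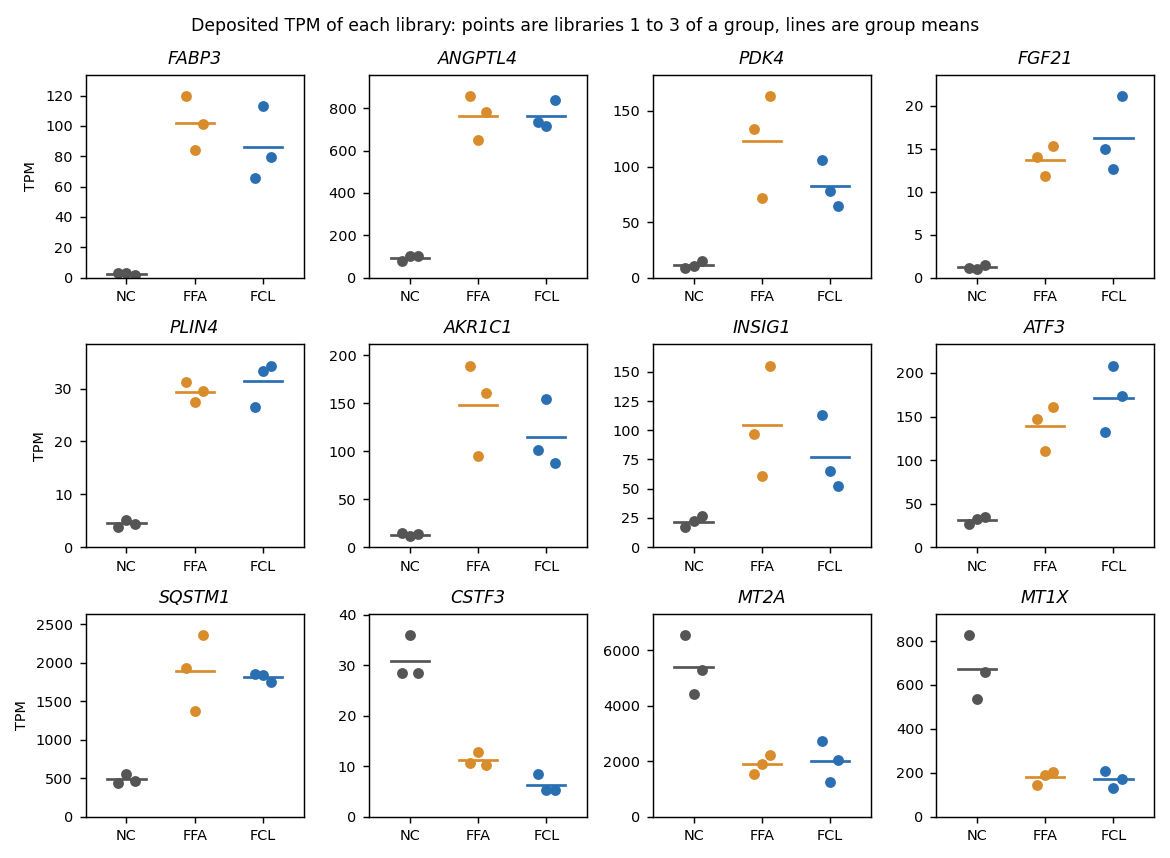
Deposited TPM of 12 genes in each NC, FFA and FCL library, with 1 panel per gene and a linear axis that starts at 0 in each. Points are libraries in replicate order and lines are group means. In every panel the NC libraries lie apart from both groups given fatty acids, lower in the first 9 panels and higher for CSTF3, MT2A and MT1X.

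The enzymes that burn fatty acids moved less. Of 26 tested genes of fatty acid oxidation and ketogenesis, 8 rose and none fell, with a median log2 change of 0.15. The share called higher over all tested genes was 6.51%. CPT1A, which makes the acylcarnitines that enter mitochondria, was at 26.1, 33.2 and 32.3 TPM in NC and 60.3, 85.2 and 66.4 TPM in FCL (log2 change 1.18, SE 0.15, adjusted p = 0.000223). The carnitine carrier gene SLC25A20 rose by 0.69, and the subunits HADHA and HADHB of the trifunctional protein by 0.83 and 1.10 on the log2 scale. ACADVL, which takes the first oxidation step on very long chains, rose from 1126 ± 11.6 to 1743 ± 238 TPM (log2 change 0.62). ECH1 (0.76), ETFA (0.92) and ACAA2 (0.76) were the other called members. The calls of SLC25A20 and ACAA2 were lost with the compared groups alone. The medium-chain and short-chain dehydrogenase genes ACADM and ACADS were not called, at -0.21 and -0.07, nor was CPT2 at 0.15.

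Storage genes changed in part. Of 16 tested genes for droplet coats, triglyceride storage and lipases 4 rose and none fell (median log2 change 0.50). The share called higher over all tested genes was 6.51%. PLIN4, a droplet coat protein, rose from 3.88, 5.2 and 4.43 TPM in NC to 26.6, 33.4 and 34.3 TPM in FCL (log2 change 2.56, SE 0.15, adjusted p = 1.57e-07). PLIN2, the coat protein most used as a droplet marker in hepatocytes, was low in these cultures, at 0.235, 0.305 and 0.495 TPM in NC and 1.07, 2.53 and 2.92 TPM in FCL (log2 change 1.19, adjusted p = 0.00452). Both genes were apart in all libraries, and the call of PLIN2 was lost with the compared groups alone. The acyltransferase gene AGPAT2 rose by 0.77 and the hormone-sensitive lipase gene LIPE by 1.53, the latter from 0.792 ± 0.405 to 4.13 ± 0.848 TPM. DGAT2, which makes triglyceride, and PNPLA2, which cleaves it, had log2 changes of 0.51 and 0.47 and were not called (adjusted p = 0.0601 and 0.0902), although all FCL libraries lay above all NC libraries in both. The count of 4 was 9 without FCM replicate 3 and 8 with median-of-ratios rescaling.

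Of 12 tested genes for uptake, binding and activation of fatty acids 3 rose, FABP3 and the acyl-CoA synthetase genes ACSL1 and ACSL5. The share called higher over all tested genes was 6.51%. ACSL5 went from 1.34, 2.21 and 3.05 TPM to 4.62, 11 and 7.15 TPM (log2 change 1.39, adjusted p = 0.00327) and ACSL1 from 0.675, 1.3 and 1.82 TPM to 2.89, 4.41 and 3.95 TPM (1.09, adjusted p = 0.00356). FABP1, the main carrier of liver cells, was at 0.278, 0.548 and 0.0079 TPM in NC and 1.38, 1.03 and 1.44 TPM in FCL and was not called (0.85, adjusted p = 0.0951). The calls of ACSL1 and ACSL5 were lost with the compared groups alone. The transporter gene CD36 did not reach the filter. The median of the 12 was 0.19.

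Synthesis of new fatty acids was mixed. Of 16 tested lipogenic genes 5 rose and none fell (median log2 change 0.38). The Δ9 desaturase gene SCD went from 252, 324 and 398 TPM to 521, 799 and 517 TPM (log2 change 0.91, SE 0.18, adjusted p = 0.00578), with no overlap, and its call was lost with the compared groups alone. ACSS2, which activates acetate, rose by 0.96, the glucose-responsive factor gene MLXIPL by 0.82, the desaturase gene FADS1 by 0.79 and the citrate carrier gene SLC25A1 by 0.48. FASN, the fatty acid synthase itself, was at 531, 675 and 625 TPM in NC and 624, 537 and 572 TPM in FCL, groups that overlapped (-0.07, adjusted p = 0.886). ACACA (0.01) and SREBF1 (-0.28, adjusted p = 0.364) were not called either. The count of 5 was 2 without NC replicate 1 or FCL replicate 3 and 8 without FCL replicate 1. The call of MLXIPL was lost without any 1 of the NC libraries, FCL replicate 2 or FCL replicate 3. That of FADS1 was lost without NC replicate 1, FCL replicate 2 or FCL replicate 3. Both were lost with the compared groups alone. SLC25A1 lost its call without NC replicate 1, NC replicate 3 or FCL replicate 3, and with median-of-ratios rescaling.

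Genes of cholesterol synthesis and uptake rose in 19 of 26 tested members, with none lower and a median log2 change of 0.78. The count was 14 to 20 when any 1 library was left out, with 14 without NC replicate 1, and 13 with the compared groups alone. INSIG1, which holds the sterol sensor in the endoplasmic reticulum and is itself a target of SREBP2, was at 17, 22.1 and 26.7 TPM in NC and 113, 65.2 and 52 TPM in FCL (log2 change 1.71, SE 0.30, adjusted p = 0.00242). The groups did not overlap, and the FCL libraries differed among themselves by more than the NC libraries did. In the first steps from acetyl-CoA, ACAT2 rose by 1.14 and MVK by 0.82, while HMGCS1 at 0.57 was not called (adjusted p = 0.155). FDPS, which makes farnesyl diphosphate, rose from 639 ± 26.6 to 1360.3 ± 119 TPM (1.09, SE 0.10, adjusted p = 1.73e-05). On the way from farnesyl diphosphate to cholesterol, FDFT1 and SQLE each rose by 1.39, MSMO1 by 1.59, DHCR7 by 1.19 and HSD17B7 by 1.05. SREBF2, the gene of the master factor SREBP2, rose by 0.73. The call of MSMO1 was lost without NC replicate 1, NC replicate 2 or FCL replicate 1. That of SREBF2 was lost without NC replicate 1 or FCL replicate 2. Of 10 tested genes for apolipoproteins and VLDL assembly none was called by limma, and 0 had an unadjusted p under 0.05, against 24.8% of all tested genes.

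NRF2 targets, which detoxify and keep redox balance, rose in 18 of 27 tested members and fell in none (median log2 change 0.74). AKR1C1, an aldo-keto reductase, was at 14.8, 11.4 and 13.4 TPM in NC and 101, 155 and 88 TPM in FCL (2.99, SE 0.23, adjusted p = 3.19e-06). AKR1C2 rose by 2.86 and AKR1C3 by 1.82. These 3 are close paralogs, so how the authors' counting divided reads among them is uncertain. AKR1B1, a reductase of the polyol pathway, rose from 488 ± 34.9 to 1209.7 ± 97.5 TPM (1.31, adjusted p = 3.67e-06). HMOX1, which breaks down haem, rose by 1.76, the quinone reductase gene NQO1 by 0.88 and the thioredoxin reductase gene TXNRD1 by 0.84. The pentose phosphate genes PGD, TKT and TALDO1 rose by 0.73, 0.82 and 0.41. The call of TALDO1 was lost with median-of-ratios rescaling and with the compared groups alone. The glutathione synthesis genes GCLC (0.67, adjusted p = 0.0959) and GCLM (0.51, 0.334) and the cystine transporter gene SLC7A11 (-0.11) were not called. The count of 18 was 16 to 19 when any single library was left out.

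Targets of AHR, the receptor for many planar aromatic compounds, rose in 3 of 8 tested members, against 6.51% of all tested genes. CYP1A1, its best known target, was at 0.446, 0.786 and 0.216 TPM in NC and 4.15, 5.38 and 3.91 TPM in FCL (1.89, SE 0.21, adjusted p = 6.24e-05), low but apart in every library. TIPARP, which restrains the receptor, rose by 1.04, a call lost with the compared groups alone. The same gene CYP1A1 was at 4.03, 2.73 and 5.12 TPM in FFA, without C3R.

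Targets of ATF4 and the integrated stress response rose in 13 of 30 tested members and fell in 1 (median log2 change 0.42). ATF3, a stress-induced repressor, went from 26.2, 32.9 and 35 TPM to 132, 208 and 173 TPM (2.40, SE 0.20, adjusted p = 4.98e-06), with no overlap. PPP1R15A, which restores translation after eIF2α phosphorylation, was at 84.2, 102 and 89.1 TPM in NC and 266, 274 and 307 TPM in FCL (1.62, adjusted p = 8.52e-05). TRIB3 rose by 1.10, the amino acid transporter gene SLC7A5 by 0.88, the stress hormone gene GDF15 by 0.82 and ATF4 itself by 0.59. The call of SLC7A5 was lost with the compared groups alone. The member that fell was DDIT4, an inhibitor of mTORC1, by 0.62 (adjusted p = 0.00694), from 637 ± 38.3 to 415 ± 36.3 TPM. Among biosynthetic targets of ATF4, ASNS (0.25), PSAT1 (-0.01), PHGDH (0.39) and MTHFD2 (0.31) were not called, nor was DDIT3 (0.89, adjusted p = 0.27).

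The promoters of FGF21 and ATF3 are shown because both genes led this list and each held a match to the core of the amino acid response element, the site bound by ATF4. The windows are the 250 bases before the RefSeq start site on GRCh38.p14, plus strand, at chr19:48755274-48755523 for FGF21 and chr1:212565157-212565406 for ATF3, 5′ to 3′, with the match to TGATGNAA or its reverse complement in capitals.
FGF21: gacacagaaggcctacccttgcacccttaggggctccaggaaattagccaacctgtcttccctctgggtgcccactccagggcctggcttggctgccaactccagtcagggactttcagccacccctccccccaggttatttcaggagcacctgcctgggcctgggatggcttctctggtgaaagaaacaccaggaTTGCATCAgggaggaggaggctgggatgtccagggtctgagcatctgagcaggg
ATF3: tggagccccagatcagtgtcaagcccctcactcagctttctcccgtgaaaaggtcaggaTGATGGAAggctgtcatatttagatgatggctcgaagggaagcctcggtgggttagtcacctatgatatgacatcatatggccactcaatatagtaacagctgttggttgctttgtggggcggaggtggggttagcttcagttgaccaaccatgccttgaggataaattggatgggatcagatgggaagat
The motif was searched on both strands and occurs in 3.14% of 35116 such windows. The match begins 54 bases before the start site in FGF21 and 191 bases before it in ATF3, where a window at another start site of ATF3 held none. The windows of TRIB3 and PPP1R15A held no match, which says only that these letters are not in those windows.

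Chaperone genes moved both ways. Of 21 tested genes of endoplasmic reticulum chaperones and the unfolded protein response, 3 rose, P4HB (0.49), HERPUD1 (1.00) and the factor gene XBP1 (0.65), and the translocon gene SEC61B fell by 0.59, against 6.51% higher and 2.56% lower over all tested genes. The count of 3 was 0 without NC replicate 1 and with the compared groups alone, and SEC61B was not called with median-of-ratios rescaling. The call of HERPUD1 was lost without any 1 of the NC libraries, FCL replicate 1 or FCL replicate 2. It was also lost with median-of-ratios rescaling, quantile normalization, libraries 12 to 15 left out and the GC and length trend removed. The main chaperone gene of this compartment, HSPA5, was at 174 ± 43.3 TPM in NC and 210.0 ± 41.9 TPM in FCL (0.28, adjusted p = 0.604). Of 15 tested heat shock chaperones none rose and 2 fell, the mitochondrial co-chaperone gene HSPE1 by 0.65 and HSP90AA1 by 1.07. HSP90AA1 was at 37.3, 63.7 and 72.1 TPM in NC and 26.6, 42.7 and 15.4 TPM in FCL, groups that overlapped. Its call was lost in 8 of the 15 leave-outs and with the compared groups alone. That of HSPE1 was lost without any 1 of the NC libraries, FCL replicate 2 or FCL replicate 3, and with median-of-ratios rescaling.

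**Figure D4:**
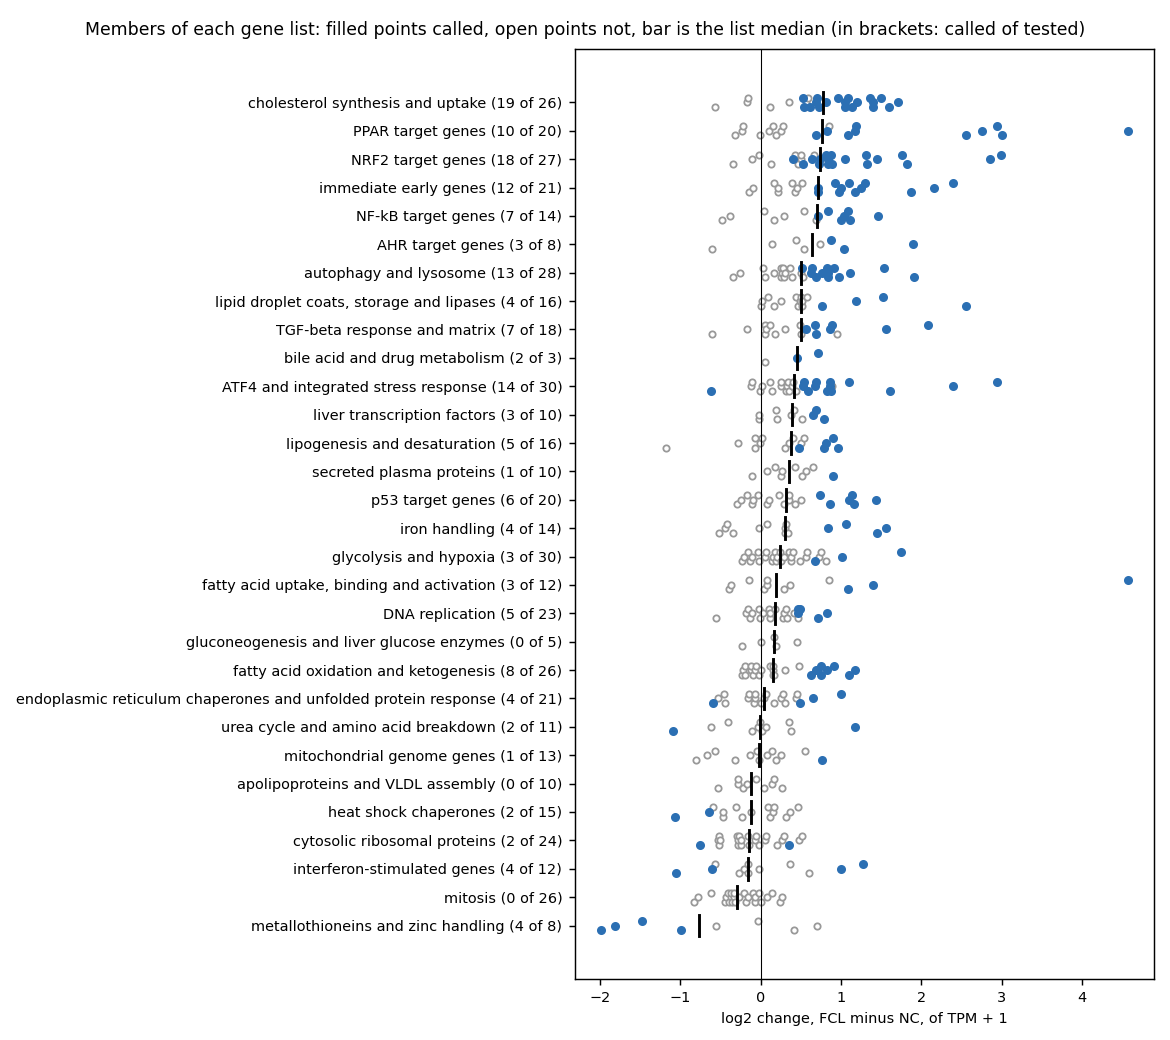
The log2 change of TPM + 1, FCL minus NC (horizontal axis), of every tested member of the 30 gene lists, 1 row per list. Filled points are called members, open points are members not called, and the bar is the median of the list. Cholesterol, PPAR and NRF2 genes lie mostly to the right of 0, while metallothioneins lie to the left.

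Autophagy and lysosome genes rose in 13 of 28 tested members and fell in none (median log2 change 0.50). SQSTM1, the receptor that brings ubiquitinated cargo to autophagosomes and also an NRF2 target, was at 437, 558 and 461 TPM in NC and 1847, 1837 and 1748 TPM in FCL (1.91, SE 0.17, adjusted p = 1.2e-05). The lysosomal protease gene CTSD went from 646, 701 and 658 TPM to 1596, 2083 and 2161 TPM (1.53, adjusted p = 4.98e-06). The groups did not overlap in either gene. The other rises were mostly of lysosomal enzymes, including NEU1 (1.11), CTSL (0.97), CTSA (0.84), PSAP (0.84) and HEXA (0.77), and of the autophagy genes ULK1 (0.91) and WIPI1 (0.83). The calls of CTSA and WIPI1 were lost with the compared groups alone. LAMP1 and LAMP2, structural membrane proteins of the lysosome, were at 0.28 and 0.17 and were not called.

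Immediate early genes rose in 12 of 21 tested members and fell in none (median log2 change 0.71). KLF2 was at 2.56, 4.35 and 2.88 TPM in NC and 13, 19.1 and 22.5 TPM in FCL (2.16, SE 0.26, adjusted p = 0.000155) and its relative KLF4 at 2.42, 2.83 and 3.97 and 10.3, 14.9 and 16.4 TPM (1.87, adjusted p = 0.000223). JUND rose by 1.30, FOSB by 1.25, NR4A1 by 1.18 and the mRNA-decay factor gene ZFP36 by 0.97. FOS (0.51), JUN (-0.09) and EGR1 (0.17) were not called.

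Of 14 tested NF-kB targets 7 rose (median log2 change 0.70), or 5 to 9 when any single library was left out. The chemokine gene CXCL2 went from 8.81, 6.72 and 8.38 TPM to 20.5, 20.1 and 31.5 TPM (1.46, adjusted p = 0.000202), the inhibitor gene NFKBIA rose by 1.09 and the mitochondrial superoxide dismutase gene SOD2 by 1.04. CXCL8 (0.04) and ICAM1 (0.54) were not called. TGF-beta and matrix genes rose in 7 of 18, with the feedback inhibitor gene SMAD7 from 6.56, 8.79 and 8.34 TPM to 17.2, 29.5 and 31 TPM (1.56, SE 0.24, adjusted p = 0.00108) and the matricellular gene CCN1 at 0.87. That count was 4 without NC replicate 1, NC replicate 2, FCL replicate 2 or FCL replicate 3. For both lists the share called higher over all tested genes was 6.51%.

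Targets of p53 rose in 6 of 20 tested members, against 6.51% of all tested genes. CDKN1A, which encodes the cell cycle inhibitor p21, was at 96.5, 98.5 and 112 TPM in NC and 276, 281 and 275 TPM in FCL (1.43, SE 0.11, adjusted p = 3.67e-06), apart in every library. PHLDA3 rose by 1.10 and GADD45A by 1.13, while MDM2 (0.23) and BAX (-0.03) were not called. Of 26 tested mitosis genes none was called by limma. An unadjusted p under 0.05 was found for 6 of them, against 24.8% of all tested genes. The median log2 change of the 26 was -0.30, with MKI67 at -0.32, TOP2A at -0.78 and CDK1 at -0.18. Lower calls among the 26 numbered 4 with quantile normalization, 4 with median-of-ratios rescaling, 3 with the GC and length trend removed and 3 without NC replicate 1. In the same order, lower calls over all tested genes numbered 700, 508, 805 and 281, against 332 in the main fit. Of 23 DNA replication genes 5 rose, against 6.51% of all tested genes, by 0.46 to 0.82, namely E2F1, MCM7, CDT1, FEN1 and MCM5. That count was 3 without NC replicate 1, NC replicate 2 or FCL replicate 2. MCM5 lost its call in 12 of the fits that each left out a single library. Its call was also lost with a pseudocount of 0.1, the mitochondrial genome left out and a replicate block. FEN1 lost its call without NC replicate 1, NC replicate 2 or FCL replicate 2. Both calls were lost with no filter and with the compared groups alone.

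The metallothioneins, small cysteine-rich proteins that bind zinc and copper and are switched on by the metal sensor MTF1, fell. All 4 tested members fell, while the 4 other tested genes of the list, which handle or sense zinc, were not called. MT2A, the most abundant of them, was at 6528, 4414 and 5268 TPM in NC and 2733, 1256 and 2037 TPM in FCL (-1.48, SE 0.27, adjusted p = 0.00313). MT1X went from 826, 538 and 661 TPM to 208, 131 and 172 TPM (-1.98, SE 0.23, adjusted p = 0.000114) and MT1E from 55.4, 53.3 and 53 TPM to 20, 10.8 and 14.5 TPM (-1.81, adjusted p = 0.000113). The groups did not overlap in any of these 3. MT1F fell by 0.99 (adjusted p = 0.0379), a call lost without NC replicate 1, NC replicate 3, FCL replicate 2, FCL replicate 3 or FCH replicate 3 and with median-of-ratios rescaling. These genes are close paralogs, and reads may have been divided among them unevenly. The zinc exporter gene SLC30A1, another MTF1 target, was at 0.71 (adjusted p = 0.0584), opposite in sign to the metallothioneins and not called, while it was called higher with quantile normalization and with median-of-ratios rescaling.

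The promoters of MT2A and MT1X are shown because each holds several matches to the core of the metal response element, the site bound by MTF1. They are the 250 bases before the RefSeq start site on GRCh38.p14, plus strand, at chr16:56608334-56608583 for MT2A and chr16:56682220-56682469 for MT1X. Capitals mark matches to the core TGCACNC or TGCGCNC or their reverse complements.
MT2A: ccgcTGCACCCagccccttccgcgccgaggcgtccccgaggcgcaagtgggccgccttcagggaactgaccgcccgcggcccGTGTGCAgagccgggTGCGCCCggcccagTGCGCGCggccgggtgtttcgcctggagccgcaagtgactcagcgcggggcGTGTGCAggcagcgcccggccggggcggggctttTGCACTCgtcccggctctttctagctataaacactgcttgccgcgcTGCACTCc
MT1X: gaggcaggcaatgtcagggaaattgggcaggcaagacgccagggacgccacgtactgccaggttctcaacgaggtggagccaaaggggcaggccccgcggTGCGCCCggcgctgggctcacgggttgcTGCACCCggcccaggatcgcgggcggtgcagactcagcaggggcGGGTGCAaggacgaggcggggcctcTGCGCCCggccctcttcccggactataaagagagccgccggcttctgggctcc
Both strands were searched, and every start was counted. MT2A held 7 matches and MT1X held 4. At least 1 match occurs in 24.8% of the 35116 windows and at least 4 occur in 0.37%. A match is a run of letters and does not show that the factor is bound.

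Genes that handle iron rose in 4 of 14 tested members, against 6.51% of all tested genes. FTH1, the heavy chain of the iron store ferritin, was at 6926, 8258 and 7122 TPM in NC and 23307, 14962 and 23937 TPM in FCL (1.45, SE 0.16, adjusted p = 8.5e-05). FTL, the light chain, rose by 0.84, and both are NRF2 targets as well. The call of FTL was lost with median-of-ratios rescaling. BMP6, which signals iron load to hepatocytes, rose by 1.06 and SMAD7 was the fourth member. The transferrin receptor gene TFRC (0.32) and the hepcidin gene HAMP (-0.44) were not called.

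The other large falls lay outside the lists. CSTF3, a subunit of the factor that cleaves pre-mRNA before polyadenylation, went from 28.4, 36 and 28.5 TPM to 8.54, 5.23 and 5.33 TPM (-2.14, SE 0.20, adjusted p = 1.27e-05). LSP1, an actin-binding protein, fell by 1.77 from 51.2 ± 2.91 to 15.6 ± 7.42 TPM, and ANKRD2, a stretch-responsive protein of muscle, by 1.73 from 16.3 ± 1.31 to 4.21 ± 0.525 TPM. None of these 3 overlapped between groups. The histone gene H4C11 was at 22.2, 20.3 and 3.89 TPM in NC and listed at 0 in all FCL libraries (adjusted p = 0.0286), and its call was lost without NC replicate 1, NC replicate 2, FCL replicate 2 or FCL replicate 3. The pseudogene SEPTIN14P19, at 21.4, 8.49 and 36.6 TPM in NC, and the antisense gene NR4A1AS, at 4.76, 3.56 and 1.26 TPM, were likewise listed at 0 in all FCL libraries (adjusted p = 0.00209 and 0.00179). The remaining large changes with a symbol were STAG2-AS1 (-1.71), H4C1 (-1.63) and the rise of C19orf48P (2.77). The call of STAG2-AS1 was lost without any 1 of the NC libraries, FCL replicate 1 or FCL replicate 2, and with a pseudocount of 0.1. That of H4C1 was lost without NC replicate 1, NC replicate 3 or FCL replicate 2. Both were lost with array weights, the compared groups alone and libraries 12 to 15 left out. C19orf48P lost its call without NC replicate 2 or FCL replicate 2 and with the compared groups alone. Pseudogenes and histone genes have near-identical copies, and the sources used here do not give the use of strand in counting, so these entries are uncertain.

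Liver functions outside lipid handling were sparsely expressed. For the counts that follow, the shares over all tested genes were 6.51% higher and 2.56% lower. Of 26 listed secreted plasma proteins 10 were tested and 1 rose, the complement gene CFB (0.91, adjusted p = 0.0253), whose call was lost without NC replicate 1, NC replicate 2 or FCL replicate 3. Of 10 tested liver transcription factors 3 rose, the oxysterol receptor gene NR1H3 (0.79, adjusted p = 0.000437), CEBPB (0.69) and XBP1. The count of 3 was 1 without NC replicate 1 or NC replicate 2, and CEBPB was not called with quantile normalization. In the urea cycle list ASS1, which joins citrulline and aspartate, rose by 1.17 from 536 ± 19.7 to 1209 ± 110.4 TPM, and HPD, an enzyme of tyrosine breakdown, fell by 1.09, of 11 tested. Of 3 tested genes of bile acid and drug metabolism POR (0.71) and ALAS1 (0.45) rose, the latter a call lost in 10 of the 15 leave-outs, all NC and all FCH libraries among them, and with the compared groups alone. None of the 5 tested genes of gluconeogenesis was called by limma, and 1 had an unadjusted p under 0.05.

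Glycolysis and hypoxia genes rose in 3 of 30 tested members, near the 6.51% over all tested genes, namely ADM (1.75), NDRG1 (1.01) and ALDOC (0.68), and the count was 10 without FCL replicate 1. The call of NDRG1 was lost when any 1 of the NC libraries, FCL replicate 2 or FCL replicate 3 was left out. ADM, a vasodilator peptide, went from 50.4, 45.5 and 58.2 TPM to 205, 155 and 165 TPM. Interferon-stimulated genes were split, with OAS1 (1.27) and IRF1 (1.01) higher and ISG15 (-1.05) and IFI6 (-0.61) lower among 12. The calls of IRF1 and IFI6 were lost in the same 5 leave-outs. ISG15, a ubiquitin-like protein, went from 18.8, 16.6 and 17.1 TPM to 7.64, 6.2 and 10.3 TPM, and OAS1, a sensor of double-stranded RNA, from 44, 50.7 and 46.2 TPM to 103, 136 and 107 TPM. Of 13 genes of the mitochondrial genome 1 rose, MT-ND1 (0.77, adjusted p = 0.00958), also near the 6.51%, and its call was lost with the compared groups alone. Of 24 cytosolic ribosomal protein genes RPL3 rose (0.35) and RPL38 fell (-0.75), and neither was called without FCL replicate 2 or with median-of-ratios rescaling. Over all tested genes 6.51% were called higher and 2.56% lower. FCL replicate 2 held less of several short ribosomal transcripts than the other NC and FCL libraries, for example RPS29 at 12444, 5251 and 9611 TPM in FCL and 12611, 11508 and 11303 TPM in NC.

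The same genes were then set beside the cultures given the fatty acids alone. FFA against NC shares its NC libraries with FCL against NC, so likeness between both comparisons is in part built in, and the test of the difference is FCL against FFA. FFA against NC had 955 called genes (7.37%), 708 higher (5.47%) and 247 lower (1.91%). FCL against FFA had 1 called gene (0.00772%), a copy of the U2 RNA gene that was not called against NC, and 667 genes (5.15%) with an unadjusted p under 0.05. With array weights, which let limma weight each library by its fit, FCL against FFA had 873 called genes, or 487 when FCH replicate 3 was left out. In that weighting FCL replicate 3 had a weight of 2.83 and FCL replicates 1 and 2 had 0.258 and 0.194, so the FCL mean rested largely on 1 library.

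Of the 1175 genes called against NC none was called between FCL and FFA by limma, the smallest adjusted p among them being 0.901. The 95% interval of the difference excluded 0, which is an unadjusted p under 0.05, in 89 of them. A missed threshold does not show equal levels: the median of the interval's distance to either side was 0.35 on the log2 scale. For FABP3 the log2 change against NC was 4.83 in FFA and 4.57 in FCL, and the difference of FCL minus FFA was -0.26 (95% interval -0.92 to 0.41). PDK4 was at 134, 71.8 and 163 TPM in FFA, with a difference of -0.52 (-1.08 to 0.05). ANGPTL4, at 856, 649.7 and 779.9 TPM in FFA, had a difference of 0.01 (-0.31 to 0.33), the narrowest of these. The libraries of FCL and FFA overlapped in all 3 genes.

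For the lipid genes given above, the differences lay on both sides of 0. They were -0.42 for INSIG1 (-1.05 to 0.22), -0.03 for SCD (-0.42 to 0.35), 0.08 for PLIN4 (-0.23 to 0.40) and 0.15 for CPT1A (-0.17 to 0.47). AKR1C1 differed by -0.35 (-0.84 to 0.14) and MT2A by 0.03 (-0.54 to 0.60). By list, counts of rises in FFA against NC stood at 10 of 20 for PPAR targets, 16 of 26 for cholesterol genes and 18 of 27 for NRF2 targets, and all 4 tested metallothioneins fell there too. Against FFA, an unadjusted p under 0.05 was found for 5.15% of all tested genes, and for 5 of 26 mitosis genes, 5 of 21 endoplasmic reticulum genes, 4 of 30 ATF4 genes and 3 of 13 genes of the mitochondrial genome, none of them called. In FCL and in FFA, the median log2 change from NC was -0.30 and 0.03 for the mitosis genes, 0.04 and 0.26 for the endoplasmic reticulum genes, and -0.01 and -0.39 for the mitochondrial genome. The mitosis and endoplasmic reticulum genes concerned were all lower in FCL than in FFA, for example TOP2A with a difference of -0.92 (-1.69 to -0.15) and HSPA5 with -0.71 (-1.33 to -0.08), each with an adjusted p of 0.901. Of the 20 listed genes of the lipid panel 18 were tested, 11 rose in FCL against NC, and none was called between FCL and FFA by limma, where 0 had an unadjusted p under 0.05.

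**Figure D5:**
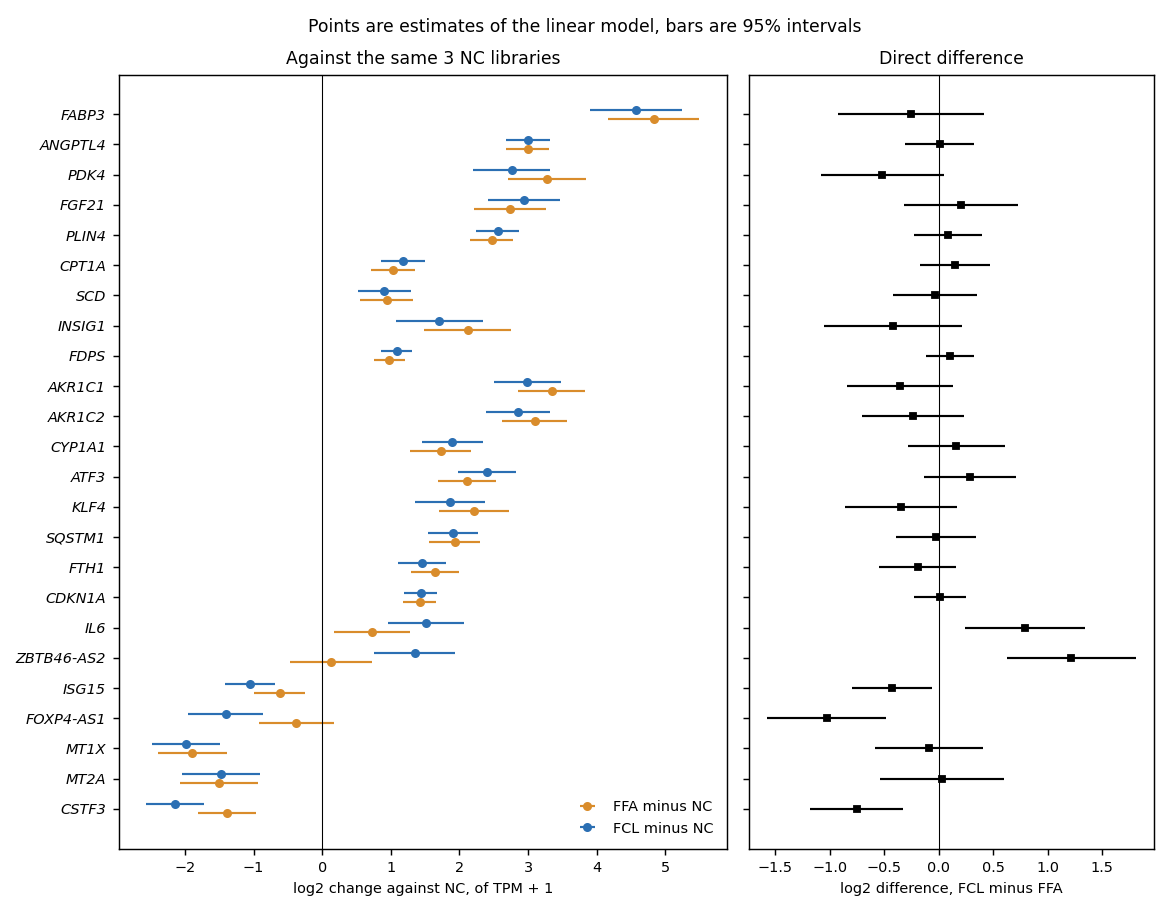
Left, log2 changes of TPM + 1 against the same 3 NC libraries for FCL and FFA. Right, the direct difference FCL minus FFA. Points are model estimates and bars are 95% intervals. The intervals on the right include 0 for most genes shown, and exclude it for IL6, ZBTB46-AS2, ISG15, FOXP4-AS1 and CSTF3.

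The genes called against NC that stood farthest from FFA were picked for that difference, so their intervals describe and do not test. CSTF3 was named for its fall against NC and not by this rule. It was at 10.6, 12.8 and 10.3 TPM in FFA, between NC and FCL. Its difference was -0.75 (-1.18 to -0.33, adjusted p = 0.901 by limma). Every FCL library was below every FFA library. IL6, an inflammatory cytokine, was at 0.638, 2.32 and 1.02 TPM in NC, 2.5, 3.15 and 2.4 TPM in FFA and 4.98, 6.98 and 4.34 TPM in FCL, with a log2 change of 1.51 against NC (adjusted p = 0.00209) and a difference of 0.79 (0.24 to 1.34) against FFA. The antisense gene FOXP4-AS1 was at 7.27, 9.5 and 6.43 TPM in NC, 5.91, 4.47 and 6.74 TPM in FFA and 1.4, 2.53 and 3.08 TPM in FCL, and ZBTB46-AS2 was listed at 0 in NC and at 2.13, 2.14 and 0.67 TPM in FCL. The others of this kind were H4C11, SEPTIN14P19, Telomerase-vert and UBBP1 on the lower side and C19orf48P, TRIM16L and BPTFP1 on the higher side, mostly pseudogenes or multicopy entries. Of the 5 not listed at 0 throughout a group, the differences against FFA on the log2 scale lay between -1.14 for Telomerase-vert and 0.72 for C19orf48P.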

How the data were processed

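RNA was sequenced from 15 cultures in 5 groups of 3, after oligo(dT) selection with a stranded kit, per the labels' protocols. Per the labels, the authors used HiSat2 to align reads to the human genome of Ensembl and RSEM to quantify genes. The sources used here do not give tool versions, the genome build, the annotation release or the use of strand. The deposited values are TPM for 63241 genes, of which the authors' table pairs 42640 with a symbol.

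The 6 NC and FCL libraries differed from each other by whole multiples of 0.01 TPM in all 63241 genes (tolerance 1e-08), but in 12775 genes their values shared an offset from such multiples, an adjustment that no label states. The offset leaves TPM differences between NC and FCL as they were and can shift their ratios; its size was not determined here. FCH replicate 3 differed from them by whole multiples in 50466 genes only, and its TPM summed to 990018, against 1001310 in each other library.

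Genes with at least 1 TPM in at least 3 libraries were kept (12950). A linear model on log2(TPM + 1) with 1 mean for each group and without covariates was fitted to all 15 libraries with limma 3.58.1 in R 4.3.3, with an empirical Bayes mean-variance trend. The model was tested on simulated data. The contrasts were FCL minus NC, FFA minus NC and FCL minus FFA, each two-sided and adjusted by Benjamini-Hochberg over all tested genes.

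Libraries were put in groups by their labels. The comparison, and so its members, and the 30 gene lists, 5 marker lists and the lipid panel of 20 genes were chosen with earlier results of these data known. Genes named are the 10 largest rises and falls with a symbol and no overlap, up to 3 called members of each list with the smallest p, the lipid panel, and up to 5 called genes each way that stood farthest from FFA. Other list members given with values were chosen after those values were seen, to show each list's range of roles. Some genes that the rule names are not reported here, though list counts include them. Promoters are RefSeq windows on GRCh38.p14, trimmed to the 250 bases before the start, found for 6 of 8 symbols looked up. GC content and transcript length came from GENCODE, matched for 96.4% of tested genes.

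The alternatives tried were no filter, a pseudocount of 0.1, a mean of at least 5 TPM, median-of-ratios rescaling, quantile normalization, the mitochondrial genome left out, array weights, a replicate block, a minimum log2 change of 1, a fit of only the groups compared and each library left out. The minimum log2 change of 1 was a limma test of whether a change exceeds 1, which is stricter than a cut on the estimate. Array weights without FCH replicate 3, libraries 12 to 15 (in the labels' numbering) left out and a GC and length correction were added after seeing the data.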

Additional observations from a re-analysis of the deposited data

Results flagged for a closer look

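ENSG00000274432, an entry for U2, a small RNA of the spliceosome, was flagged because its change from control differed between the cultures with and without 25 µM C3R. It was listed at 0 in all NC and all FCL libraries and at 93.4, 18.3 and 26.0 TPM in FFA replicates 1 to 3. The difference of FCL minus FFA was -5.20 on the log2(TPM + 1) scale (SE 0.69, adjusted p = 0.0223 by limma), a value that depends on the pseudocount and is no fold. The gene was called in 8 of the 15 fits that left out a library, with adjusted p from 3.45e-05 to 0.19. Human U2 RNA has many near-identical copies and no poly(A) tail, so this value is uncertain.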

How the results depend on the processing

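Of the 96 named genes, none that was called in the main fit or in an alternative changed sign against NC between both. Genes called in neither could change sign. When 1 library was left out, FASN, at -0.07 in the main fit, reached 0.0008, and ACACA, at 0.01, reached -0.10. Of the 89 that were called, 25 lost the call with the compared groups alone, 18 without the filter, 79 with a minimum log2 change of 1, and 0 to 18 when 1 library was left out. The counts of called genes moved. For FCL against NC, 1175 became 4780 with array weights (2421 higher and 2359 lower), 4483 with array weights on 14 libraries (2267 and 2216), 1924 with the GC and length trend removed (1119 and 805), 455 with the compared groups alone (354 and 101) and 14 with a minimum log2 change of 1 (12 and 2). The lower count of 332 was 508 with median-of-ratios rescaling and 700 with quantile normalization. Array weights gave FCH replicate 3, which departed from the 0.01 TPM steps of the NC and FCL libraries, a weight of 100.5. Leaving out 1 library gave 682 to 1951 called genes, 401 to 1400 higher and 156 to 551 lower.

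For FFA against NC, 955 became 1439 with quantile normalization, 2574 and 2291 with array weights on 15 and 14 libraries, 1852 with the GC and length trend removed, 15 with a minimum log2 change of 1, and 427 to 1457 with 1 library left out. For FCL against FFA, 1 became 873 and 487 with both array weights, and 0 with a pseudocount of 0.1, quantile normalization, a minimum log2 change of 1, the compared groups alone or the trend removed. It was 0 to 2 with 1 library left out. In the 12 limma fits with 0 called genes, 2 to 1357 genes had an unadjusted p under 0.05, where the 2 came with the minimum change. The cause of these moves was not tested.

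Replicate numbers were not taken to pair the samples. Across genes, deviations from the group means of same-numbered NC and FCL libraries correlated at 0.15, 0.08 and -0.17. Pairs with unlike numbers ran from -0.28 to 0.22. The deviations of 3 libraries from their own mean depend on each other, so these values cannot decide whether cultures were paired. With the number as a replicate block, 973 genes were called in FCL against NC, 706 higher and 267 lower, and 6 named genes lost the call, HSP90AA1 and ALAS1 among them, as did the marker CSF1R. TPM give no depth, so what depth limits could not be stated.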

Other observations

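Outside the lists, 2 groups of genes were read after their values were seen, and no test of the group was made. Of 11 tested keratins 4 rose and 2 fell in FCL against NC, where 6.51% of all tested genes rose and 2.56% fell. KRT17, a keratin of stressed and basal epithelia, was at 137, 105 and 123 TPM in NC and 499.9, 453 and 457 TPM in FCL (log2 change 1.95), and KRT16 at 3.06, 1.53 and 1.86 and 14.8, 10.7 and 13 TPM (2.15). KRT14 and KRT80 were the other rises (1.68 and 0.81). KRT18, a keratin of simple epithelia, fell from 2287, 2492 and 2280.0 TPM to 1376, 1597 and 1628 TPM (-0.62) and KRT81 by 0.98.

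Against 6.51% higher and 2.56% lower over all tested genes, 1 of the 20 most abundant genes in NC rose, FTH1, and 1 fell. The latter was H19, an imprinted long noncoding RNA of fetal tissue, at 23786, 24187 and 25576 TPM in NC, 14486, 13919 and 11616 TPM in FFA and 11616, 13489 and 13259 TPM in FCL, a log2 change of -0.94 (adjusted p = 0.00144 by limma). No FCL library came near an NC library.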
